A study of Penicillium oxalicum with 114 samples.

Results

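Deletion of clrB in the filamentous fungus Penicillium oxalicum was followed early after a move of the mycelium from glucose medium to wheat bran plus Avicel (WA). The mutant dClrB, in which POXClrB is deleted, gave 3 RNA-seq libraries at 12 h (F, S and T) and 3 at 24 h (F, S and T). The control strain Ku70, in which POXKu70 is deleted, gave 3 libraries at 12 h (29, 30 and 31) and 3 at 24 h (32, 33 and 34). These 12 libraries, chosen by the strain, medium and time in the labels, are part of the 114 of the series. Control library 30 is labelled 13 h and was kept in the 12 h group. The labels do not say whether dClrB also lacks POXKu70, how many transformants it stands for, or whether the libraries of a group came from separate cultures. The p-values therefore measure only the spread between libraries of a group, which may be technical. That spread was estimated over the 45 libraries fitted, which include other strains, media and times than these 12. The share of wheat bran and Avicel in WA is not given in the sources used here.

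ClrB is known from other filamentous fungi as a zinc cluster transcription factor that is needed for the expression of many cellulase genes. Avicel is microcrystalline cellulose, and wheat bran adds hemicellulose, starch and protein, which fungi use with other enzymes. Ku70 is a protein of non-homologous end joining, and strains without it are often used because targeted gene deletion is easier in them. The questions addressed here are which genes differed between dClrB and Ku70 at each time, and which differed the same way at both.

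Totals of the 12 libraries were 7114218 to 8267079 expected counts, over 8057 to 8463 genes listed per library. The 9863 gene IDs had 0 matches among 9964 reference genes. Genes are therefore given by ID, and markers of mycelium could not be checked. Libraries were clustered by the FPKM that 1 count was worth, with the number of clusters fixed at 3. The clusters are called quantification sets, set 1 (F, 29 and 32), set 2 (S, 30 and 33) and set 3 (T, 31 and 34). Over the 48 time-course libraries the mean absolute log2 difference was at most 0.131 within sets and at least 0.149 between them, a thin margin. Libraries of the same set deviated from their group means together, with correlations over genes of 0.859 to 0.936. Between sets they were -0.491 to -0.419. Deviations within a group of 3 sum to 0, so these negative values are partly built in. Counts of genes are therefore also given with the set as a block. Fold changes, errors and p-values of single genes come from the fit without the block. Leaving out 1 library there also leaves the other library of its set unmatched.

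The libraries of set 3 stood apart in a second way. Among genes whose set 1 and set 2 values differed over 2-fold, with the set effect seen in the other groups taken out, the set 3 value lay between the other values for 78.0% of 327 genes in dClrB and 82.0% of 445 in Ku70 at 12 h. At 24 h the shares were 83.9% of 286 genes in dClrB and 79.1% of 177 in Ku70. The same count for a set 1 library gave 48.3% to 55.6% in the 4 groups, and for a set 2 library 39.4% to 50.5%. On a scale where the set 2 value is 0 and the set 1 value is 1, the median position of the set 3 value was 0.33 to 0.53. Whether the set 3 libraries are independent cultures was not tested. The counts below use all 3 sets. Counts of genes called are also given without set 3, an alternative chosen after these values were seen, whereas overlaps between lists and comparisons with dPOX01167 are given with all 3 sets alone.

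**Figure D1:**
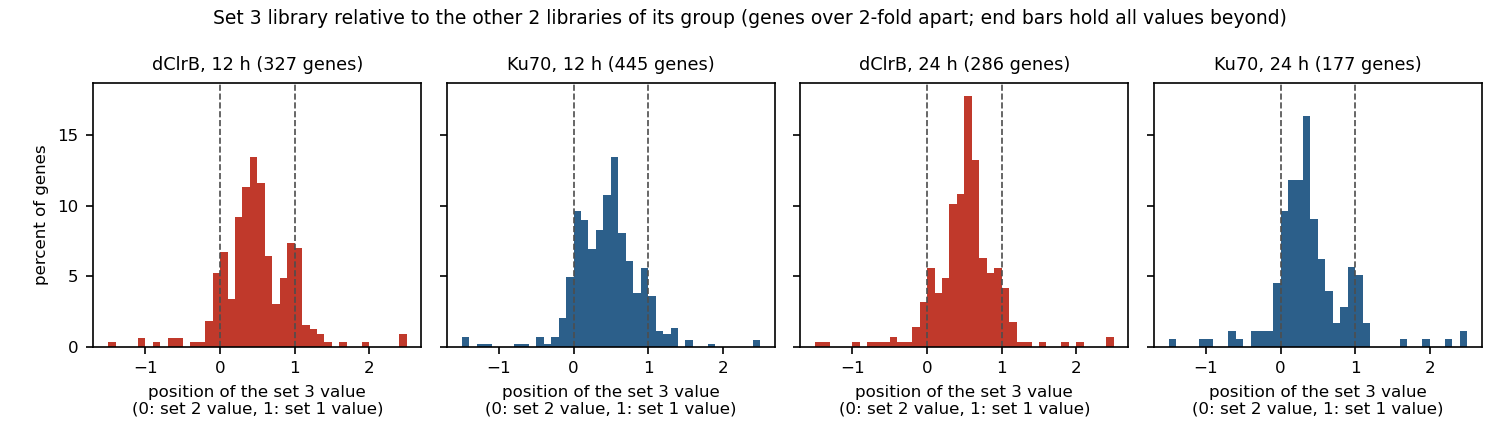
Position of the set 3 library between the other libraries of its group, for dClrB and Ku70 at 12 h and at 24 h on WA. The x axis is the position (0 is the set 2 value and 1 the set 1 value, no unit), the y axis the percent of the genes that differ over 2-fold between sets 1 and 2, and the dashed lines mark 0 and 1; between 78.0% and 83.9% of the genes lie between the lines.

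The labels give no locus for clrB. POX01960 was nearly without counts in dClrB, with a count share (CPM, scaled to the library total) of 0, 0.683 and 0 in the F, S and T mutant libraries of 12 h, against 33, 54.7 and 36.1 CPM in Ku70. At 24 h it had 0, 0.135 and 0.137 CPM in dClrB, against 150, 128 and 130 CPM in Ku70. The groups did not overlap at either time. The log2 fold change, dClrB over Ku70, was -7.49 ± 0.86 (SE) at 12 h (edgeR, adjusted p = 1.50e-06) and -10.33 ± 0.98 at 24 h (adjusted p = 5.60e-08). In the other deletion strain of the time course, dPOX01167, it stood at 29.4 to 35.7 CPM on WA at 12 h. Its range there at 24 h was 127 to 135 CPM. The files do not say that POX01960 is clrB, and its level was seen before it was named.

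Few genes passed the test in the fit of 45 libraries. Calls required an adjusted p (Benjamini-Hochberg) below 0.05 together with a log2 fold change beyond 1 in size, from edgeR's quasi-likelihood test over 8140 genes. At 12 h, 17 genes were higher and 17 lower in dClrB, each 0.209% of the genes tested (0.418% in all). At 24 h, 39 genes were higher (0.479%) and 20 lower (0.246%), 0.725% in all. The median log2 fold change over all genes tested was 0.00 at both times. The 3 dClrB values lay above the 3 Ku70 values in 17 of 17 higher genes at 12 h and below them in 16 of 17 lower ones, where 7.96% and 6.87% of all genes tested did so. At 24 h this held for 39 of 39 and 20 of 20, against 8.83% and 8.44% of all genes tested. The genes were called on these same values, so the lack of overlap describes them and adds no support to the calls. The lower genes at 24 h summed to 1481 ± 72.6 CPM in dClrB and 25692 ± 4454 CPM in Ku70, and the higher ones to 10282 ± 141 CPM in dClrB and 2741 ± 243 CPM in Ku70 (SD, n = 3 each), sums given as a description of genes that the test chose. POX09358 and POX09365 held most of the lower sum in Ku70, and the other 18 lower genes summed to 945 ± 162 CPM in dClrB and 3930 ± 329 CPM in Ku70. The set as a block gave 34 higher and 37 lower at 12 h. For 24 h it gave 71 higher and 37 lower. Without the set 3 libraries 0 genes were called at 12 h, with 202 at an unadjusted p under 0.05, or 2 with the block, and DESeq2 with all libraries called 67. At 24 h 7 were called without set 3. Leaving out another set takes away as many libraries, and gave 39 calls at 12 h and 105 at 24 h without set 1, and 50 and 27 without set 2.

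Single libraries also moved the counts. At 12 h, 20 genes were called without dClrB T, 21 without Ku70 29 and 18 without Ku70 31. At 24 h, 37 were called without dClrB T, 28 without Ku70 33 and 29 without Ku70 34. A fit of the 6 libraries of one time alone called 3 genes at 12 h and 19 at 24 h. Without the dPOX01167 libraries on Avicel, 76 genes were called at 12 h and 130 at 24 h. The WA libraries of dClrB and Ku70 alone, with the set as a block, gave 136 and 192. The counts thus depended on which libraries were fitted together.

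At both times 11 genes were called in the same direction, 6 higher (0.0737% of the genes tested) and 5 lower (0.0614%). The 6 shared higher genes are 35.3% of the 12 h list and 15.4% of the 24 h list, and the 5 shared lower genes are 29.4% and 25% of the lists. With the set as a block the shared genes were 11 higher and 7 lower. Without set 3 there were 0, and with that and the block 2, which were POX01960 and POX03389. Without 1 library the count was 7 (without dClrB S or Ku70 31 of 12 h) to 10. A further gene, POX05489, was called higher at 12 h and lower at 24 h.

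POX06051 fell most among the shared genes after POX01960. It had 9.07, 8.61 and 8.26 CPM in dClrB (F, S, T), against 291, 358 and 329 CPM in Ku70 at 12 h, and 35, 42.5 and 32.8 CPM in dClrB, against 786, 529 and 653 CPM in Ku70 at 24 h. The 3 values of each group lay close together and the groups were far apart at both times. The log2 fold change was -5.28 ± 0.54 at 12 h (39-fold lower, adjusted p = 1.65e-07) and -4.16 ± 0.51 at 24 h (17.9-fold lower, adjusted p = 4.19e-06). Its level stood higher at each later time in both strains, with 91.5 to 95.3 CPM in dClrB and 961 to 1021 CPM in Ku70 at 36 h. Without set 3 its log2 fold change was -5.27 at 12 h (adjusted p = 0.0549) and -4.08 at 24 h (adjusted p = 0.168).

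POX03389 had the steadiest values. At 12 h it had 199, 223 and 211 CPM in dClrB, against 709, 709 and 699 CPM in Ku70, and at 24 h 116, 154 and 153 CPM in dClrB, against 453, 504 and 447 CPM in Ku70. The log2 fold change was -1.78 ± 0.18 at 12 h (adjusted p = 1.65e-07) and -1.74 ± 0.18 at 24 h (adjusted p = 1.76e-07), so that the difference between the times was 0.04. This gene was called without each library in turn. Without set 3 it passed at 24 h (-1.84, adjusted p = 0.0274) and missed the threshold at 12 h (-1.80, adjusted p = 0.0549).

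POX03782 had 23.2, 43.1 and 34 CPM in dClrB, against 77.2, 144 and 108 CPM in Ku70 at 12 h. At 24 h its level was higher in both strains, with 97.3, 170 and 127 CPM in dClrB, against 744, 1308 and 937 CPM in Ku70. In both strains and at both times the set 2 library was the highest and the set 1 library the lowest, and the log2 ratios within sets were -1.73 to -1.65 at 12 h and -2.94 to -2.87 at 24 h. The fitted log2 fold change was -1.77 ± 0.38 at 12 h (adjusted p = 0.02) and -2.94 ± 0.40 at 24 h (adjusted p = 2.38e-05). The call at 12 h ended without dClrB F, dClrB T, Ku70 30 or Ku70 31 (adjusted p = 0.0608 to 0.17). These p-values come from the fit without the block. With the set as a block all 17 lower genes of 12 h, this one included, were still called.

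POX06079 had 26.6, 16.5 and 40.3 CPM in dClrB, against 108, 152 and 184 CPM in Ku70 at 12 h, and 28.9, 22.3 and 43.9 CPM in dClrB, against 127, 83.2 and 138 CPM in Ku70 at 24 h. The groups did not overlap, and the mutant's values were alike at both times. The log2 fold change was -2.47 ± 0.49 (adjusted p = 0.00728) at 12 h and -1.88 ± 0.48 (adjusted p = 0.0421) at 24 h. The call ended at 12 h without dClrB F or S (adjusted p = 0.0574 and 0.0729) and at 24 h without any 1 of the 6 libraries (0.0633 to 0.237).

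Among the shared genes that were higher in dClrB, POX07757 varied widely between libraries. At 12 h it had 7805, 1637 and 4175 CPM in dClrB, against 27.3, 412 and 220 CPM in Ku70. At 24 h it had 201, 121 and 139 CPM in dClrB, against 5.5, 17.5 and 14.2 CPM in Ku70. The groups did not overlap, but set 1 was above set 2 in dClrB and below it in Ku70. Within sets the log2 ratio at 12 h was 8.13 in set 1, 1.99 in set 2 and 4.24 in set 3. The fitted log2 fold change was 4.23 ± 0.70 at 12 h (adjusted p = 0.000722) and 3.58 ± 0.69 at 24 h (adjusted p = 0.00308), and it was called without each library in turn. Without set 3 the adjusted p was 0.807 at 12 h and 0.91 at 24 h. At 36 h the strains overlapped.

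POX09747 had 552, 32.1 and 173 CPM in dClrB, against 4.64, 7.88 and 5.09 CPM in Ku70 at 12 h, and 18.4, 16.9 and 18.1 CPM in dClrB, against 3.84, 1.22 and 1.03 CPM in Ku70 at 24 h. The spread within dClrB was wide at 12 h and small at 24 h. The log2 fold change was 5.32 ± 0.64 at 12 h (adjusted p = 3.61e-06) and 3.14 ± 0.59 at 24 h (adjusted p = 0.0026). On Avicel alone at 12 h it was -0.41.

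The other shared higher genes stood at lower levels or changed less. POX09718 had 13.4, 14.5 and 13.9 CPM in dClrB, against 2.39, 0.394 and 1.38 CPM in Ku70 at 12 h, and 31.8, 37.5 and 28.2 CPM in dClrB, against 6.65, 5.02 and 5.05 CPM in Ku70 at 24 h. Its log2 fold change was 3.33 (adjusted p = 0.00137) at 12 h and 2.53 (adjusted p = 0.0141) at 24 h, where the call ended without dClrB S, Ku70 33 or Ku70 34 (0.0511 to 0.103). POX01055 was a gene of low level, with 2.3, 4.92 and 3.44 CPM in dClrB, against 0.703, 0.656 and 0.826 CPM in Ku70 at 12 h, and 14.1, 17.3 and 15.3 CPM in dClrB, against 1.41, 1.77 and 1.42 CPM in Ku70 at 24 h. Its log2 fold change was 2.24 (adjusted p = 0.0105) and 3.31 (adjusted p = 3.82e-05) at 12 h and 24 h. The 24 h call of POX01055 held without set 3 (adjusted p = 0.0287), whereas the 12 h call ended without dClrB S, Ku70 29 or Ku70 31 (0.0576 to 0.0788).

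POX08831 had 236, 640 and 460 CPM in dClrB, against 140, 162 and 175 CPM in Ku70 at 12 h, and 1604, 711 and 1018 CPM in dClrB, against 538, 309 and 379 CPM in Ku70 at 24 h. Its fitted log2 fold change was 1.46 at 12 h (adjusted p = 0.0233) and 1.43 at 24 h (adjusted p = 0.0168). The 12 h call was kept only without dClrB F among the 6 libraries (0.0535 to 0.255 without the others), and the 24 h call ended without dClrB F, Ku70 33 or Ku70 34 (0.105 to 0.169). POX07677 had 37.1, 50.3 and 41.4 CPM in dClrB, against 25.6, 14.6 and 15.7 CPM in Ku70 at 12 h, and 131, 109 and 104 CPM in dClrB, against 27.4, 19.6 and 17.3 CPM in Ku70 at 24 h. POX07677 was 2.29-fold higher at 12 h (adjusted p = 0.0439), where the call ended without any 1 library (0.0515 to 0.232). At 24 h its log2 fold change was 2.41 (adjusted p = 5.07e-06), and the call held without each library.

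**Figure D2:**
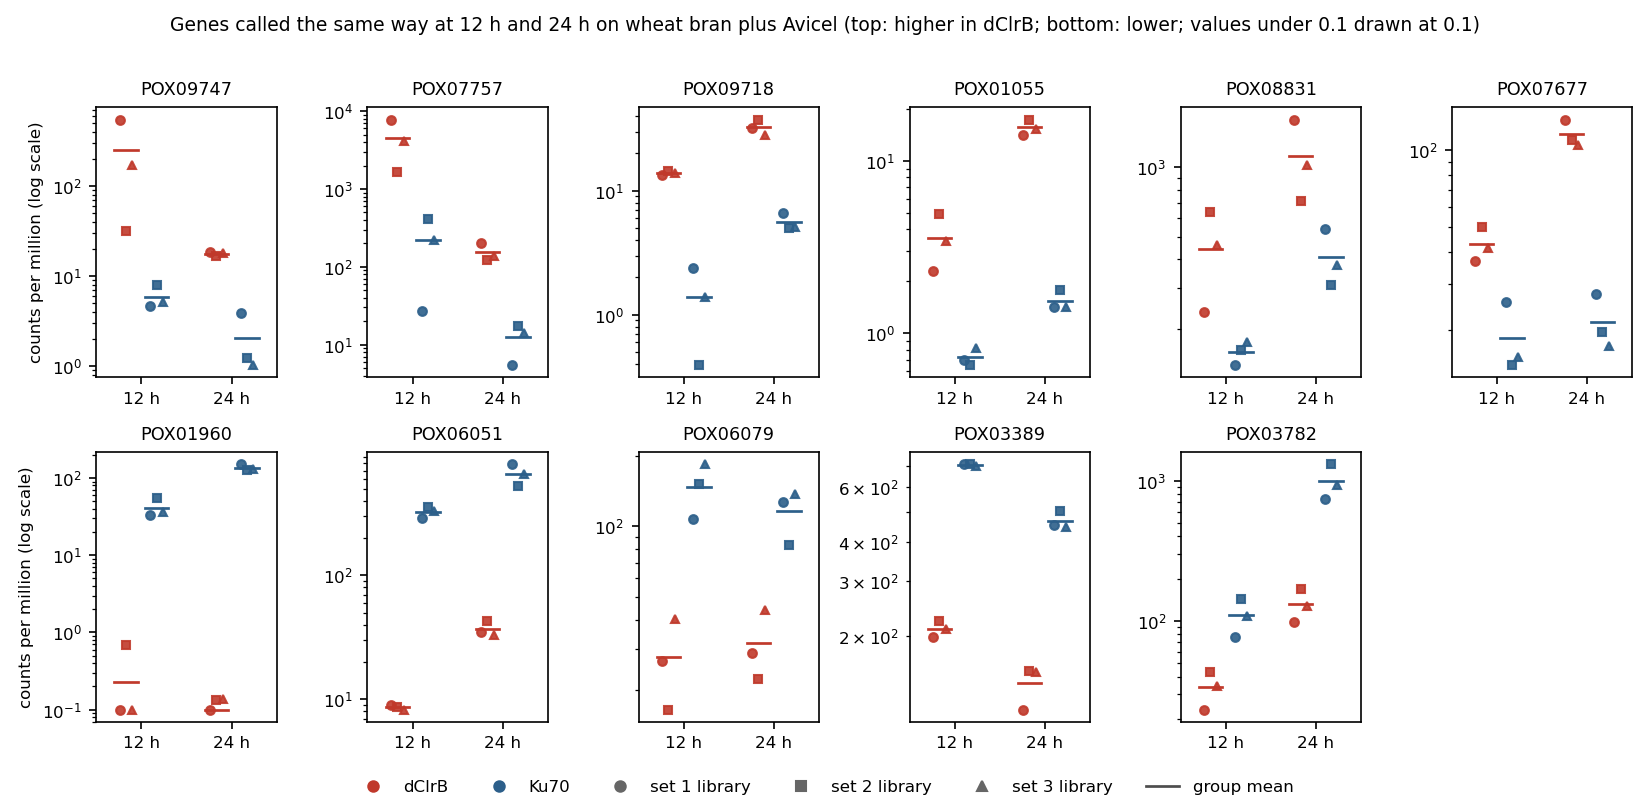
Levels of the 11 genes called the same way at 12 h and 24 h on WA, in CPM on a log axis, by library (dClrB red, Ku70 blue; circle, square and triangle for sets 1, 2 and 3; lines are means of 3 libraries). The 6 genes of the upper row are higher in dClrB at both times and the 5 of the lower row lower, with no overlap of the strains in any panel.

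At 12 h, further genes were lower in dClrB. POX01961, whose number follows that of POX01960, had 13.8, 18.2 and 16.1 CPM in dClrB, against 255, 229 and 263 CPM in Ku70. Its log2 fold change was -3.99 ± 0.50 (adjusted p = 5.74e-06). At 24 h it had 39.2, 63 and 53.5 CPM in dClrB, against 110, 89.4 and 102 CPM in Ku70, a log2 fold change of -0.96 that was not called. In dPOX01167 it had 313 to 420 CPM at 12 h. The files do not state whether reads of neighbouring or overlapping genes were told apart.

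POX04758 and POX04756, with numbers 2 apart, also fell together at 12 h. POX04758 had 3.27, 3.28 and 2.89 CPM in dClrB, against 72.8, 25.7 and 69 CPM in Ku70 (log2 fold change -4.15 ± 0.54, adjusted p = 1.20e-05). POX04756 had 9.19, 4.92 and 4.96 CPM in dClrB, against 95.7, 28.7 and 72.6 CPM in Ku70 (-3.37 ± 0.75, adjusted p = 0.0236). In Ku70 library 30, the one labelled 13 h, both were lowest of the 3 control libraries, and in no library did dClrB reach it. The call of POX04756 ended without any of the libraries F, S, T, 29 and 31 (0.0687 to 0.154), and that of POX04758 held without each library.

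POX01228 had 74, 61.8 and 57.5 CPM in dClrB, against 166, 310 and 228 CPM in Ku70 (log2 fold change -1.94, adjusted p = 0.000333, and called without each library). The remaining named genes that fell at 12 h, POX06601, POX09258, POX05132 and POX05589, had log2 fold changes of -2.82, -2.61, -1.90 and -1.84. POX05589 had 118, 60.4 and 77.8 CPM in dClrB, against 450, 136 and 328 CPM in Ku70, where library 30 was again the lowest. The calls of POX06601, POX09258 and POX05132 ended without F, T, 29 or 31, and that of POX05589 without S, T, 29 or 31 (adjusted p = 0.0576 to 0.188 over these genes).

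A run of genes with consecutive numbers, POX07755, POX07756 and POX07757, was higher in dClrB at 12 h. POX07755 had 142, 24.6 and 70.2 CPM in dClrB, against 4.22, 9.06 and 6.61 CPM in Ku70 (log2 fold change 3.47 ± 0.44, adjusted p = 6.67e-06). POX07756 had 70.8, 3.42 and 13.8 CPM in dClrB, against 0, 0.525 and 0 CPM in Ku70 (7.09 ± 1.47, adjusted p = 0.0258). As in POX07757, dClrB F was the highest and dClrB S the lowest library in both. POX07755 was called without each library, and the call of POX07756 ended without Ku70 29 or 31 (0.121 and 0.151). At 24 h the log2 fold changes were 1.37 and 5.56, not called.

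POX01926 and POX01927, also neighbours in number, rose less. POX01926 had 27.1, 23.4 and 24.1 CPM in dClrB, against 6.61, 8.93 and 7.02 CPM in Ku70 (log2 fold change 1.67, adjusted p = 0.0176), and POX01927 had 28.2, 38.5 and 33.5 CPM in dClrB, against 7.87, 15.2 and 14 CPM in Ku70 (1.37, adjusted p = 0.0302). Both were also called higher on WA at 36 h (2.09 and 2.63) and on Avicel alone at 12 h (2.67 and 2.95). The 12 h calls ended without dClrB T, Ku70 29 or Ku70 31 (0.0557 to 0.217 over both genes), and also without dClrB F for POX01926 and without dClrB S for POX01927.

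POX02840 rose at 12 h with a small error. It had 1305, 665 and 995 CPM in dClrB, against 298, 328 and 283 CPM in Ku70, a log2 fold change of 1.65 ± 0.18 (adjusted p = 6.09e-07, called without each library). At 24 h it had 423, 305 and 315 CPM in dClrB, against 304, 301 and 291 CPM in Ku70, and was not called. POX00640 had 593, 210 and 361 CPM in dClrB, against 118, 78.9 and 107 CPM in Ku70 (1.89, adjusted p = 0.00364, or 0.0574 without dClrB F). POX07913 had 215, 691 and 485 CPM in dClrB, against 64.2, 159 and 126 CPM in Ku70 (1.94, adjusted p = 0.0385), and its call ended without S, T, 29 or 31 (0.112 to 0.282). POX01848 had 27.7, 9.98 and 16.1 CPM in dClrB, against 7.03, 5.25 and 7.3 CPM in Ku70 (1.41, adjusted p = 0.0389), and was called only without dClrB S among the 6 libraries (0.0939 to 0.412 without the others).

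At 24 h POX09358 and POX09365 were far lower in dClrB. POX09358 had 496, 174 and 332 CPM in dClrB, against 13856, 20884 and 18207 CPM in Ku70. POX09365 had 282, 134 and 192 CPM in dClrB, against 3475, 4679 and 4186 CPM in Ku70. Together they took 0.0308% to 0.0777% of the counts of a dClrB library and 1.73% to 2.56% of a Ku70 library. The fitted log2 fold change was -5.76 ± 1.28 for POX09358 (54.3-fold lower, adjusted p = 0.0147) and -4.38 ± 0.80 for POX09365 (20.8-fold lower, adjusted p = 0.00197). In dPOX01167 at 24 h they had 14379 to 20621 and 4818 to 5111 CPM. At 12 h the libraries were uneven, and POX09358 had 26.5, 421 and 251 CPM in dClrB, against 1292, 143 and 790 CPM in Ku70, so that the strains overlapped. The call of POX09358 ended without any 1 dClrB library (0.0619 to 0.106), and that of POX09365 held without each library. Without set 3 both had an adjusted p of 1, with log2 fold changes of -5.77 and -4.35.

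POX05737 differed between the strains at 24 h with little spread. It had 32.9, 39.5 and 30.3 CPM in dClrB, against 118, 204 and 164 CPM in Ku70, a log2 fold change of -2.27 ± 0.22 (adjusted p = 7.19e-08). At 12 h it had 36.9, 19.5 and 28.1 CPM in dClrB, against 30.9, 20.3 and 23.7 CPM in Ku70, and at 36 h 265, 225 and 242 CPM in dClrB, against 344, 297 and 311 CPM in Ku70. Its 24 h call held without set 3 (-2.19, adjusted p = 0.0287).

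Other genes that fell at 24 h changed less. POX07456 had 77, 109 and 100 CPM in dClrB, against 223, 309 and 267 CPM in Ku70 (2.83-fold lower, adjusted p = 2.38e-05). POX05188 had 75.9, 75.1 and 75.4 CPM in dClrB, against 253, 156 and 193 CPM in Ku70 (log2 fold change -1.42, adjusted p = 0.000322). Both were called without each library. POX03033 had 4.7, 2.03 and 2.74 CPM in dClrB, against 14.1, 10.6 and 10.7 CPM in Ku70 (-1.91, adjusted p = 0.0433), and its call ended without any 1 library (0.0566 to 0.238).

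Among the genes that rose at 24 h, POX06145 and POX06146 are neighbours in number and moved together. POX06145 had 287, 403 and 330 CPM in dClrB, against 7.42, 36.4 and 20.8 CPM in Ku70 (log2 fold change 3.93 ± 0.75, adjusted p = 0.00299). POX06146 had 443, 619 and 541 CPM in dClrB, against 18.7, 45.6 and 36.5 CPM in Ku70 (3.96 ± 0.65, adjusted p = 0.00061). Both were called without each library, and both were called higher at 36 h too (2.55 and 2.52). In dPOX01167 at 24 h they had 27.4 to 56.5 and 44.1 to 84.8 CPM.

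POX07780, POX07782 and POX07783 formed another run of close numbers. POX07780 had 16.1, 85.6 and 53.6 CPM in dClrB, against 8.44, 0.679 and 4.14 CPM in Ku70 (log2 fold change 3.59 ± 0.65, adjusted p = 0.00197). POX07782 had 22.2, 108 and 67.6 CPM in dClrB, against 14.4, 1.77 and 5.69 CPM in Ku70 (3.22 ± 0.77, adjusted p = 0.0252), and POX07783 had 9.76, 52.5 and 27.7 CPM in dClrB, against 4.6, 1.22 and 1.94 CPM in Ku70 (3.56 ± 0.63, adjusted p = 0.00159). In all 3 genes dClrB S was the highest mutant library and Ku70 33, of the same set, the lowest control, so that the log2 ratio within set 1 was 0.61 to 1.01 and within set 2 4.94 to 6.19. The call of POX07782 ended without dClrB S, dClrB T, Ku70 33 or Ku70 34 (0.0731 to 0.228).

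POX09337 had 1449, 565 and 931 CPM in dClrB, against 282, 59.2 and 132 CPM in Ku70 (log2 fold change 2.65 ± 0.60, adjusted p = 0.0168), and its call ended without dClrB F, Ku70 33 or Ku70 34 (0.0861 to 0.168). The next numbers, POX09338 and POX09339, which were picked out after their values were seen, were called too, with log2 fold changes of 1.52 and 2.12. POX09333 had 27.3, 21.4 and 20 CPM in dClrB and no count in any of the 3 Ku70 libraries. That is at least 58.3-fold higher, with 3 counts per library as the floor. POX09606 had 1.98, 12.1 and 3.97 CPM in dClrB, again with no count in Ku70, at least 15.3-fold higher on the same floor. The call of POX09333 (adjusted p = 0.0333) ended without any 1 library (0.0652 to 0.164), and that of POX09606 (adjusted p = 0.0168) without S, 32, 33 or 34 (0.0685 to 0.118).

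**Figure D3:**
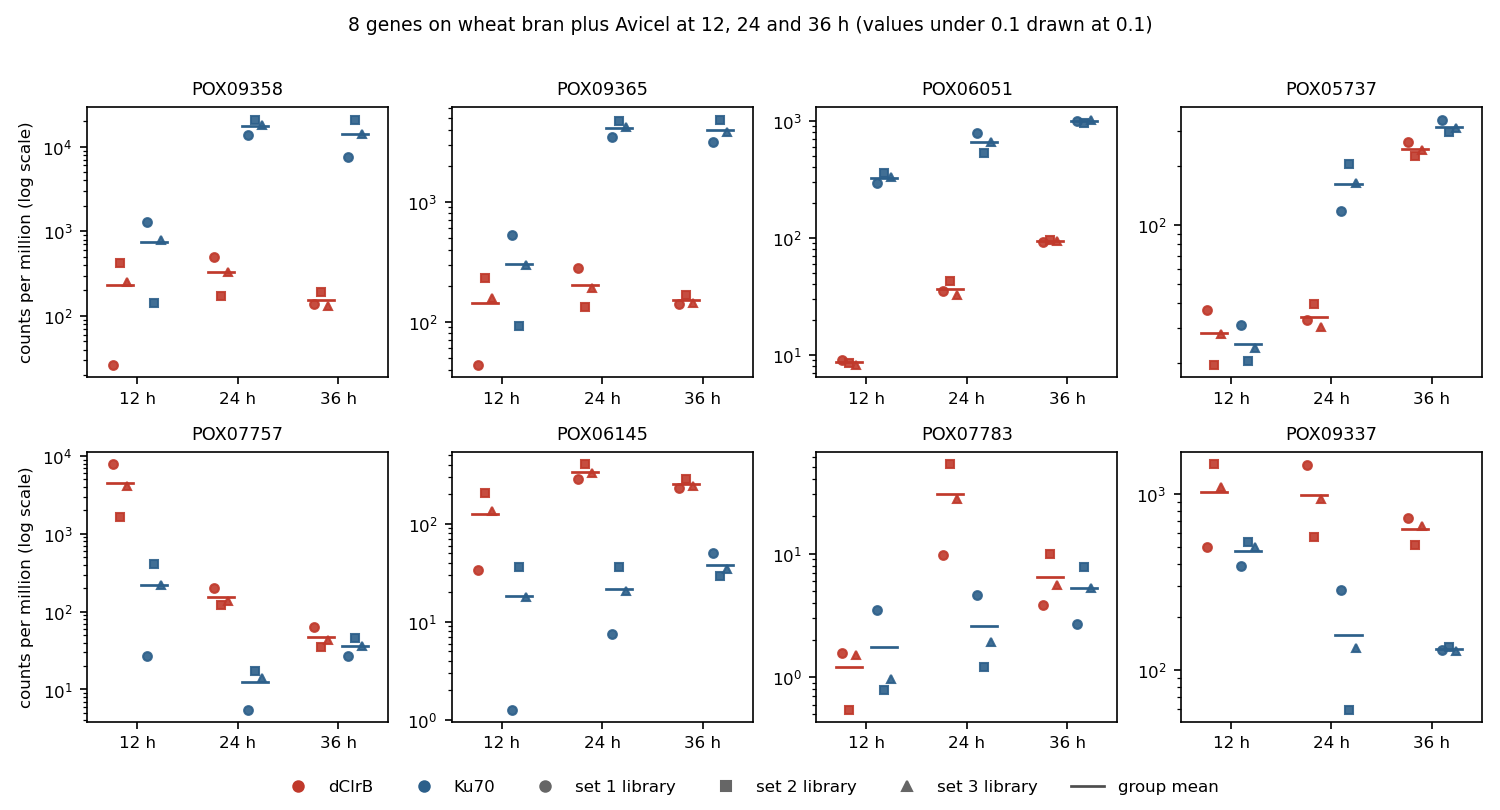
Levels of 8 of the named genes on WA at 12, 24 and 36 h, in CPM on a log axis, by library (dClrB red and left, Ku70 blue and right; circle, square and triangle for sets 1, 2 and 3; lines are means of 3 libraries). POX09358 and POX09365 are at least 3475 CPM in Ku70 and at most 496 CPM in dClrB at 24 h, and POX07757 has its highest level in dClrB at 12 h.

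The effect of the deletion itself was compared between the times by the difference of the log2 fold changes, 24 h minus 12 h. It passed the test for 10 genes with a positive difference (0.123% of the genes tested) and 4 with a negative one (0.0491%), 14 in all (0.172%), for 24 and 11 with the set as a block, and for 1 in all without set 3. Of the 14 genes, 4 had been called at 12 h and 8 at 24 h. The count was 8 without dClrB F and 7 without dClrB T of 12 h, 9 without Ku70 31, 9 without dClrB S of 24 h, 7 without Ku70 33 and 8 without Ku70 34.

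POX05489 had 29.5, 13.5 and 16.9 CPM in dClrB, against 9.28, 6.04 and 9.91 CPM in Ku70 at 12 h, and 4.45, 5.96 and 5.62 CPM in dClrB, against 14.7, 11.5 and 11.6 CPM in Ku70 at 24 h. The strains did not overlap at either time, and the order turned round. The log2 fold changes were 1.21 and -1.25, and the difference -2.45 ± 0.41 (adjusted p = 0.00269, called without each of the 12 libraries, 0.853 without set 3). The call at each single time was weaker: at 12 h it held only without dClrB S (0.0862 to 0.418 without the others) and at 24 h it ended without any 1 library (0.0572 to 0.18).

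The other differences named were of both signs. POX05737 gave -2.41 ± 0.31 (adjusted p = 5.24e-05) and POX02840 -1.45 ± 0.25 (adjusted p = 0.0033). Both were called without each of the 12 libraries. POX07783 gave 4.08 ± 0.85 (adjusted p = 0.0279), POX01961 3.03 ± 0.64 (adjusted p = 0.029) and POX01117 3.06 ± 0.63 (adjusted p = 0.0231). POX01117 had 8.71, 5.88 and 5.51 CPM in dClrB, against 25.2, 9.45 and 17.8 CPM in Ku70 at 12 h, and 33.6, 86 and 60 CPM in dClrB, against 23.4, 17.4 and 15.8 CPM in Ku70 at 24 h. These 3 calls each ended without any of 7 or 8 libraries (adjusted p = 0.0547 to 0.153).

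**Figure D4:**
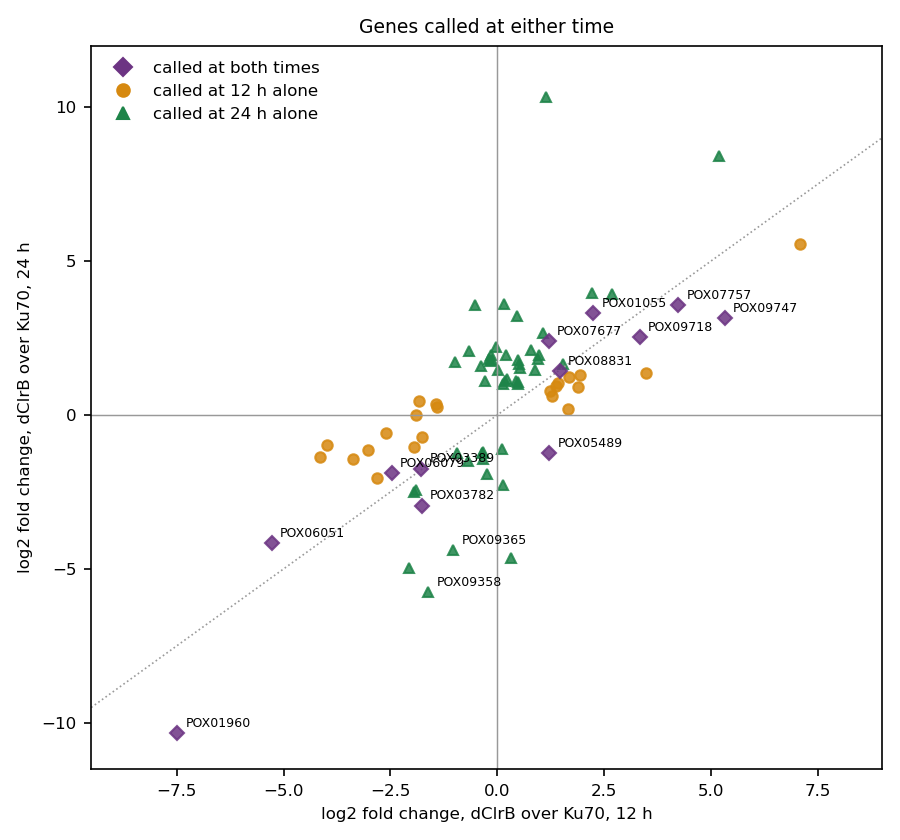
Log2 fold change, dClrB over Ku70, at 12 h (x axis) and at 24 h (y axis) of each gene called at either time on WA. Purple diamonds are called at both times, orange circles at 12 h and green triangles at 24 h; POX05489 is the only diamond with opposite signs, at 1.21 and -1.25, and the dotted line marks equal values.

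Cellulase genes break down cellulose, and xylanase genes the xylan of hemicellulose. IDs of 9 cellulase and 4 xylanase genes are known from earlier publications of the study group. They were also taken from an earlier report on the whole series, where they were known to move with clrB on Avicel. Their values on Avicel in these libraries had thus been seen before they were used here. On WA, 1 of 9 cellulase genes was called lower in dClrB at 12 h, where 0.209% of all genes tested were, and 1 of 9 at 24 h, against 0.246% of all genes tested. None were called higher (0 of 9), and 0 of 4 xylanase genes were called at either time. The median log2 fold change of the cellulase genes was -1.01 at 12 h, with 9 of 9 below 0, and -1.15 at 24 h, with 7 of 9 below 0, where the median of all genes tested was 0.00. Those below 0 at 12 h include POX01166, POX04786 and POX02740, which had few counts in most libraries. The 9 of 9 therefore rests partly on values near 0 counts. The 3 dClrB values lay below the 3 Ku70 values for 3 of 9 cellulase genes at 12 h and for 6 of 9 at 24 h, against 6.87% and 8.44% of all genes tested, and above them for 0 of 9 at both times. For the xylanase genes the medians were -0.18 at 12 h and 0.10 at 24 h, with the strains overlapping in 4 of 4. At 36 h on WA 5 of 9 cellulase genes were called lower and 1 of 4 xylanase genes, against 1.19% of all genes tested, with medians of -2.73 and -0.80. Without set 3 it was 0 of 9 and 0 of 4 at 36 h.

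The cellulase gene called at 12 h was POX03641, with 51.4, 46.9 and 59.3 CPM in dClrB, against 269, 535 and 416 CPM in Ku70. Its log2 fold change was -3.02 ± 0.51 (adjusted p = 0.000926, called without each library, 0.915 without set 3). At 24 h it had 72.9, 78.1 and 74.6 CPM in dClrB, against 203, 131 and 164 CPM in Ku70, which did not overlap and was not called (-1.15, adjusted p = 0.386). POX03641 took most of the counts of the list at 12 h, whose sum was 89.9 ± 10.8 CPM in dClrB and 479 ± 142 CPM in Ku70 (SD, n = 3 each). At 24 h the sum was 429 ± 217 CPM in dClrB and 401 ± 49 CPM in Ku70. There POX06835 had 108, 521 and 340 CPM in dClrB, against 166, 160 and 176 CPM in Ku70, which overlapped (log2 fold change 0.95, adjusted p = 0.548).

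The cellulase gene called at 24 h was POX05570, with 2.47, 5.01 and 4.11 CPM in dClrB, against 22.8, 17.9 and 22.4 CPM in Ku70 (log2 fold change -2.44 ± 0.58, adjusted p = 0.0237). The call ended without any 1 of the 6 libraries (0.0545 to 0.18), and the groups did not overlap. At 12 h it had 5.32, 8.06 and 6.61 CPM in dClrB, against 12.2, 32 and 27.3 CPM in Ku70 (-1.90, adjusted p = 0.141). Few counts stood behind some of the others. POX01166 had 1.33, 0.957 and 1.38 CPM in dClrB, against 2.81, 0.788 and 3.17 CPM in Ku70 at 12 h, and POX04786 had 0, 0.547 and 0.688 CPM in dClrB, against 0, 1.58 and 1.79 CPM in Ku70. POX02740 was read mainly in set 3, with 0.605, 0.273 and 10.3 CPM in dClrB, against 1.27, 0.525 and 9.78 CPM in Ku70 at 12 h. Nothing is drawn from it alone, although it counts in the medians and signs given above.

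The xylanase genes overlapped between the strains at both times. At 12 h POX06783 had 93.9, 285 and 133 CPM in dClrB, against 133, 256 and 153 CPM in Ku70, and POX00063 had 61.3, 50.8 and 85.5 CPM in dClrB, against 70.8, 62 and 91.7 CPM in Ku70. The summed level was 334 ± 114 CPM in dClrB and 373 ± 82.6 CPM in Ku70 at 12 h, and 138 ± 26.8 CPM in dClrB and 132 ± 7.7 CPM in Ku70 at 24 h (SD, n = 3 each).

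On Avicel alone at 12 h the same lists stood at other levels. The listed genes were known beforehand to move with clrB on Avicel. Their counts of calls there therefore describe them and add no support, and the share over all genes is no reference. The same holds for the listed genes in the difference between media. The cellulase sum was 589 ± 250 CPM in dClrB and 8753 ± 1928 CPM in Ku70 (SD, n = 3 each), and 7 of 9 cellulase and 4 of 4 xylanase genes were called lower (1.36% of all genes tested were), or 5 of 9 and 2 of 4 without set 3. The difference of the deletion effect, WA minus Avicel at 12 h, passed the test for 69 genes (0.848% of the genes tested), 36 positive (0.442%) and 33 negative (0.405%), and for 3 without set 3. The 69 genes included 4 of 9 cellulase genes, POX05571 (7.54), POX01166 (6.71), POX05570 (6.14) and POX05587 (5.06). They also included 2 of 4 xylanase genes, POX08484 (5.18) and POX00063 (3.64), and all these differences were positive. Without set 3 none of these enzyme genes passed (edgeR, adjusted p = 0.074 to 0.851). POX05571 had 3.39, 6.42 and 6.75 CPM in dClrB, against 6.18, 7.22 and 4.96 CPM in Ku70 on WA, and 1.49, 4.96 and 4.04 CPM in dClrB, against 651, 817 and 821 CPM in Ku70 on Avicel. For this gene the media differed mainly in the level in Ku70. The call of POX08484 ended without Ku70 29 (0.0521).

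Other genes named for this difference were not in the lists. POX06147 had 10.8, 16 and 11.6 CPM in dClrB, against 13.6, 12.5 and 16.9 CPM in Ku70 on WA, and 6.15, 9.09 and 6.29 CPM in dClrB, against 683, 1247 and 1032 CPM in Ku70 on Avicel (difference 6.91 ± 0.71, adjusted p = 2.25e-07, and 0.0391 without set 3). POX00062 had 31.9, 27.7 and 30.6 CPM in dClrB, against 33, 24.3 and 34 CPM in Ku70 on WA, and 29.6, 23.3 and 26.1 CPM in dClrB against no count in Ku70 on Avicel. POX06259 had no count in dClrB on Avicel, against 15.8, 8.14 and 17.7 CPM in Ku70, and POX08486 had 41.4, 7.71 and 31.2 CPM in dClrB, against 0.126, 0 and 0 CPM in Ku70. POX09468 was uneven within dClrB on Avicel, with 0.186, 20.8 and 11.5 CPM, against 0.885, 1.71 and 0.955 CPM in Ku70. The fitted differences of POX06259, POX08486 and POX09468 were 9.20, -8.25 and -7.63, and where a group is at 0 the fitted size depends on the prior count. Their calls ended without dClrB T of Avicel for POX06259, without any of 5 libraries for POX08486 and without any of 9 for POX09468 (adjusted p = 0.0514 to 0.129).

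**Figure D5:**
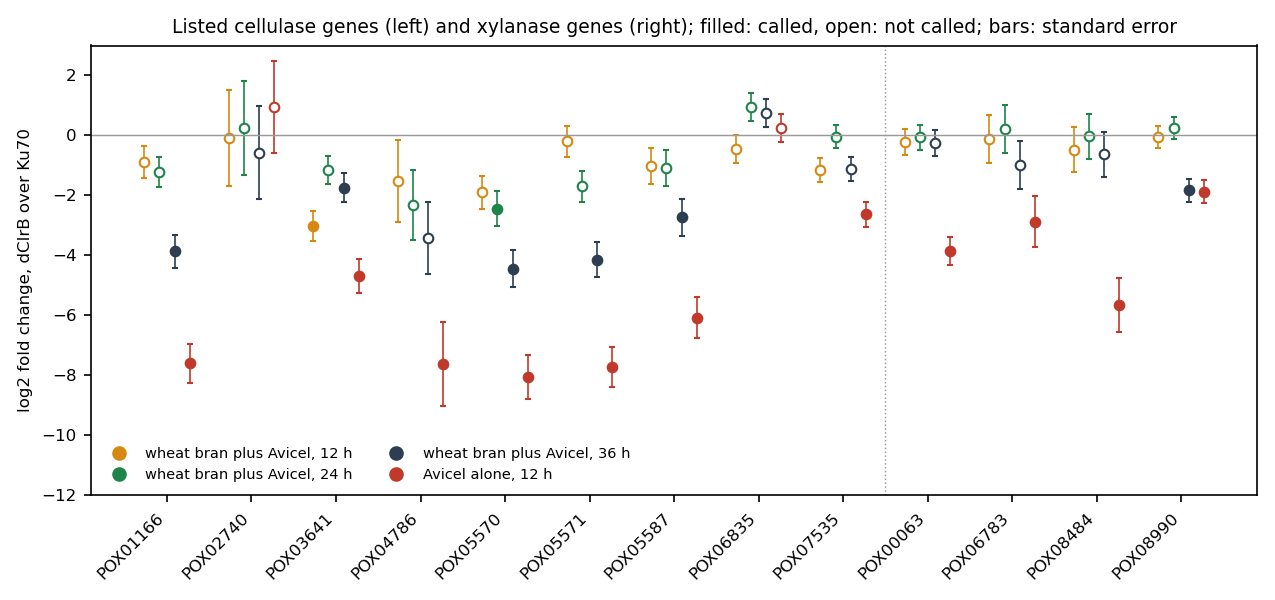
Log2 fold change, dClrB over Ku70, of the 9 listed cellulase genes and the 4 xylanase genes on WA at 12, 24 and 36 h and on Avicel alone at 12 h. Filled points were called and open ones not, and bars are standard errors; on WA at 12 h POX03641 alone is filled and at 24 h POX05570 alone, whereas 5 cellulase genes and 1 xylanase gene are at 36 h on WA, and 7 and 4 on Avicel.

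At 36 h on WA 118 genes were called higher (1.45% of the genes tested) and 97 lower (1.19%), 2.64% in all, or 6 higher and 5 lower without set 3. Of the 17 genes higher at 12 h, 6 were called higher at 36 h and 1 lower. Of the 17 lower ones, 7 were called lower and 0 higher. Of the 39 genes higher at 24 h, 13 were called higher at 36 h, and of the 20 lower ones 11 were called lower, with 20 of 20 below 0 in log2 fold change. On Avicel alone at 12 h, where 1.61% of the genes tested were called higher and 1.36% lower (2.97% in all, or 7 and 26 genes without set 3), 7 of the 17 higher and 8 of the 17 lower genes of WA at 12 h were called the same way. On Avicel at 36 h, where 4.19% were called higher and 3.21% lower (7.4% in all, or 134 and 91 genes without set 3), it was 5 of 17 and 9 of 17, with 4 of the 17 lower genes called higher. On Avicel at 12 h 1 of these 17 lower genes was called higher. Of the 39 genes higher at 24 h, 6 were called higher on Avicel at 12 h and 0 lower. On Avicel at 36 h 6 of them were called higher and 2 lower. Of the 20 genes lower at 24 h, 6 were called lower on Avicel at 12 h and 1 higher. On Avicel at 36 h 8 of them were called lower and 5 higher. Among the 11 genes shared by 12 h and 24 h, POX01960, POX06051, POX03389, POX03782 and POX06079 were lower at 36 h too, and POX08831, POX07677 and POX09718 higher. POX07757, POX09747 and POX01055 were not called at 36 h, with log2 fold changes of 0.17, 0.29 and 1.09.

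The difference of the effect, 36 h minus 24 h, passed for 46 genes (0.565% of the genes tested), 26 positive (0.319%) and 20 negative (0.246%), for 105 with the set as a block and for 1 without set 3. It was 74 without dClrB F of 36 h and 27 without dClrB S of 36 h. POX07576 had 14.6, 9.75 and 11 CPM in dClrB, against 26.7, 41.6 and 36 CPM in Ku70 at 24 h, and 32, 76.6 and 52.2 CPM in dClrB, against 10.9, 15.4 and 14.9 CPM in Ku70 at 36 h (difference 3.38 ± 0.60, adjusted p = 0.00177). The order of the strains turned round there too. POX02384 gave 4.37, POX02694 -3.58, POX08799 -4.60 and POX07780 -3.54, where the call of POX07780 ended without 9 of the 12 libraries in turn (0.0732 to 0.211). POX01424 had 13.7, 6.44 and 4.87 CPM in dClrB at 36 h, against no count in Ku70, and the strains overlapped at 24 h.

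The strain dPOX01167, sampled on WA at the same times, was set beside the calls. At 12 h the 3 dClrB values were also above the 3 dPOX01167 values for 16 of 17 higher genes and below them for 12 of 17 lower ones, where 8.81% and 8.99% of all genes tested were so. At 24 h this held for 34 of 39 higher and 18 of 20 lower genes, with 7.03% and 7.43% of all genes. The genes were called on these same dClrB values, so part of this result is built in. The shares over all genes are therefore no reference for it, and it gives no independent support for the calls. dPOX01167 is a mutant of another gene of the study and not a second control.

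Coding length was not an input to the calls. The filter and the test used counts not scaled by length, so length can still bear on which genes were called. Its median was 900 bases in the genes higher at 12 h and 1590 in those lower, and 1089 and 1166 at 24 h. Over all genes tested it was 1305, and these differences were not tested.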

How the data were processed

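Total RNA was extracted with a TRIzol kit, per the labels' protocols, and selection of messenger RNA and use of strand are not given in the sources used here. Tools named in the submitters' processing notes are RSEM 1.2.12, DESeq2, Bowtie2 2.1.0 and BWA 0.7.10-r789, with no order or role. The deposited tables hold expected counts, FPKM and TPM per gene for each library, per the file headers. They list only genes with a count above 0, and a gene not listed was set to 0. The authors' FPKM values were used to find quantification sets and in an alternative test, and the deposited TPM values were not used. No deposited read depth other than the summed expected counts was used.

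Expected counts were rounded, which moved at most 0.00038% of a library, and 77.15% to 80.24% of the listed counts were whole. Genes averaging 1 CPM or more in the 45 libraries fitted (time course of dClrB, dPOX01167 and Ku70) were tested with edgeR 4.0.16 (TMM, quasi-likelihood, Benjamini-Hochberg adjustment, R 4.3.3), and CPM is relative to the library total. IDs not of the POX series held at most 0.067% of a library's counts. Alternatives used DESeq2 1.42.0, limma 3.58.1 on log2(FPKM + 1) and log2(FPKM + 0.1), other sets of libraries, each library left out, and the quantification set as a block. The sets come from the values, not from the labels, and the pairing check is the correlation of deviations given in the report (each same-set pair above 0.1). Within-set log2 ratios use a pseudocount of 0.5 CPM. Standard errors (SE) are the size of the log2 fold change divided by the square root of the F value of edgeR's quasi-likelihood test. They are approximate, and where a group is near 0 the fitted size depends on the prior count.

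The genes named are those called the same way at both times, up to 12 highest and 12 lowest non-overlapping genes called at each time, the listed cellulase and xylanase genes, POX01960, and the 3 highest and 3 lowest genes of each difference of effects. Genes under a mean of 5 CPM in both groups were not named under the second and last of these. Members and lists were chosen with earlier results of these data known. The number of counts limits precision, and 3 counts are the floor for a gene at 0.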

Additional observations from a re-analysis of the deposited data

Results flagged for a closer look

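With all 3 sets, the genes given here passed the test of the difference itself (edgeR, adjusted p under 0.05) between times, media or stages. Values are differences of log2 fold changes, dClrB over Ku70. Without set 3, 1 gene in all passed for 24 h minus 12 h, 3 for WA minus Avicel and 1 for 36 h minus 24 h. The calls of POX01117, POX01961, POX07783, POX08486, POX09468 and POX07780 also ended without several single libraries, as given above. For POX00062, POX06259, POX08486 and POX01424 a group is at or near 0, and the fitted size depends on the prior count.

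For 24 h minus 12 h on WA they were 3.06 for POX01117, 3.03 for POX01961, 4.08 for POX07783, -1.45 for POX02840, -2.45 for POX05489 and -2.41 for POX05737. POX05489 was higher in dClrB at 12 h and lower at 24 h, with no overlap of the strains at either time.

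For WA minus Avicel at 12 h they were -10.61 for POX00062, 6.91 for POX06147, 9.20 for POX06259, -8.25 for POX08486 and -7.63 for POX09468. Among the cellulase genes they were 6.71 for POX01166, 6.14 for POX05570, 7.54 for POX05571 and 5.06 for POX05587, and among the xylanase genes 3.64 for POX00063 and 5.18 for POX08484. Among the genes called the same way at 12 h and 24 h they were 3.66 for POX06079, 4.89 for POX07757 and 5.72 for POX09747.

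For 36 h minus 24 h on WA they were 8.81 for POX01424, 4.37 for POX02384, 3.38 for POX07576, -3.58 for POX02694, -3.54 for POX07780 and -4.60 for POX08799.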

How the results depend on the processing

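None of the 1705 values of single genes under the alternatives changed direction (0 reversed), 1268 stayed on their side of the threshold and 437 were no longer called. These values cover only the 79 results of named genes that were called in the report. The alternatives use the same libraries or a part of them, so a change of direction was unlikely from the start. Of the 79 results, 4 were called in every alternative. The settings without a set, and the WA libraries with the replicate block, were chosen after seeing the data, and the cause of the changes was not tested. Genes called at 12 h (34 in the report) were 67 with DESeq2, 3 with the groups of the contrast only, 61 with the WA libraries only, 76 without dPOX01167 on Avicel, 71 with the replicate block, 136 with the WA libraries and the block, 0 without set 3 and 2 without set 3 with the block. In the same order, those at 24 h (59) were 115, 19, 115, 130, 108, 192, 7 and 8, and 105 without set 1 and 27 without set 2. Genes called the same way at both times (11) were 21, 2, 21, 26, 18, 37, 0 and 2, and 17 with limma on log2(FPKM + 1) and 7 without set 2. The 24 h minus 12 h difference (14) gave 34 with DESeq2, 26 with limma on log2(FPKM + 1), 34 with WA only, 30 without dPOX01167 on Avicel, 35 with the replicate block, 77 with WA and the block, 1 without set 3 with or without the block, and 24 without set 1. WA minus Avicel (69) gave 108 with DESeq2, 42 with the groups only, 132 without dPOX01167 on Avicel, 3 without set 3 and 4 with the block too. The 36 h minus 24 h difference (46) gave 94 with DESeq2, 70 with limma, 115 without dPOX01167 on Avicel, 105 with the block, 218 with WA and the block, 1 without set 3, 3 with the block too, 179 without set 1 and 20 without set 2. Of the listed enzyme genes, 1 at 12 h became 2 with DESeq2, with WA only and without dPOX01167 on Avicel, 3 with WA and the block, and 0 with the groups only and without set 3, with or without the block. At 24 h the 1 became 2 with DESeq2, 3 with WA only and without dPOX01167 on Avicel, 4 with WA and the block, and 0 with the groups only and without set 3, with or without the block. Leaving out 1 library gave 18 to 41 genes at 12 h, 28 to 47 at 24 h, 7 to 10 at both, 7 to 17, 48 to 83 and 27 to 74 for the 3 differences in the order above, and 1 at 12 h and 0 at 24 h for the enzyme genes. Of the named calls, 12 of 29 at 12 h and 16 of 27 at 24 h held without each library in turn. The replicate block kept 34 of the 34 calls at 12 h and 57 of the 59 at 24 h.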
